A study of Homo sapiens with 6 samples.

Results

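The genes described here encode enzymes that move hydride between NAD(P) and an alcohol, aldehyde, ketone or steroid. They were taken from the deposited gene table by symbol, as the families ALDH, ADH, DHRS, HSD11B, HSD17B, HSD3B, HSDL, RDH and CBR without ALDH18A1, ALDH1L2, HSD17B4 and HSD17B7. This gave 43 of the 11456 genes in the table. Alcohol dehydrogenases (ADH) and retinol dehydrogenases (RDH) turn alcohols into aldehydes, and aldehyde dehydrogenases (ALDH) turn aldehydes irreversibly into acids. Hydroxysteroid dehydrogenases (HSD), carbonyl reductases (CBR) and many DHRS proteins belong to the short-chain dehydrogenase/reductase superfamily, and several of those with a steroid name act mainly on retinoids, fatty acyl chains or amino acid intermediates. In hepatocytes these enzymes clear ethanol and reactive aldehydes, make retinoic acid and bile acids, and switch steroid hormones on or off.

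Polyadenylated RNA was sequenced from HepG2-hCAR, a puromycin-selected line grown from 1 cell of HepG2, a liver cancer line, infected with a lentivirus that carries human NR1I3 cDNA, the constitutive androstane receptor (CAR), under doxycycline control. All 6 libraries come from this clone and carry the inducible cDNA. The cells received vehicle (3 libraries) or doxycycline at 1 µg/ml (3 libraries), and RNA was taken at 72 h. Cells without the receptor cDNA were not given doxycycline, so the antibiotic and the receptor cannot be told apart. Separate cultures are not named in the labels, so p-values reflect the spread of these libraries, which may be technical. Levels are FPKM, which are scaled to transcript length and library size, so they can be compared between genes. Depth is unknown, and fewer transcripts per cell cannot be told apart from fewer cells that express a gene. The comparison asks how each transcript differs between doxycycline and vehicle cells.

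NR1I3 rose from 3.15, 3.01 and 3.56 FPKM in the vehicle libraries to 331, 317 and 316 FPKM with doxycycline. FPKM per library summed to 204318 to 209372. The 10 hepatocyte markers were all in the table and summed to 1802 to 1986 FPKM with vehicle and 970 to 1003 FPKM with doxycycline, with albumin at 1.77 to 1.93 and 0.272 to 0.461 FPKM. Of the leukocyte markers, LYZ, lysozyme, was at 549.5 ± 24.0 and 261 ± 7.33 FPKM (SD, n = 3 libraries per group, as below) and was called lower, and CD14 was at 0.0578 ± 0.0256 and 1.92 ± 0.0768 FPKM, under the limit for testing. Of 5 fibroblast markers PDGFRB and ACTA2 were in the table and summed to 19.1 to 20.2 FPKM with vehicle and 16.9 to 18.3 FPKM with doxycycline. Nearly all of that sum was ACTA2, which was called lower (18.6 ± 0.668 and 16.4 ± 0.780 FPKM), and PDGFRB was called higher (0.856 ± 0.0957 and 1.43 ± 0.0327 FPKM). Of 3 bile duct markers KRT19 and SOX9 were in the table and summed to 155 to 161 and 192 to 193 FPKM, where KRT19 was called higher (90.8 ± 2.97 and 134 ± 2.37 FPKM) and SOX9 lower (68.1 ± 0.910 and 59.1 ± 2.84 FPKM). PTPRC, CD3E and the endothelial markers were not analysed here, and the part of other cells in the results was not tested.

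Of the 43 genes, 37 had a mean of at least 1 FPKM over the 6 libraries and were tested with limma on log2(FPKM + 1). Calls were made at an adjusted p (Benjamini-Hochberg) under 0.05 over all 10469 genes tested, and "log2 fold change" below is doxycycline minus vehicle on this scale. Of the 37 tested genes 5 rose and 14 fell, and 18 were not called. Over all genes tested 28.8% were called, 15.2% higher and 13.6% lower, against 51.4% of these genes. The median log2 fold change was -0.13, where it was 0.01 for all genes tested. The groups were fully apart in 24 of the 37 (47.1% of all genes tested were). Most changes were under 0.5 on the log2 scale, with a median size of 0.22, where it was 0.13 for all genes tested. Of the 37 tested genes 5 were called with a change of at least 0.5 (8.00% of all genes tested were). Of the called genes ADH6 alone changed by at least 1, as did 209 of the 10469 genes tested. The genes that rose were ALDH1A1, HSD17B11, ALDH2, DHRS3 and RDH11. With 1 library left out the number that rose stayed at 5 and the number that fell was 10 to 11.

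**Figure D1:**
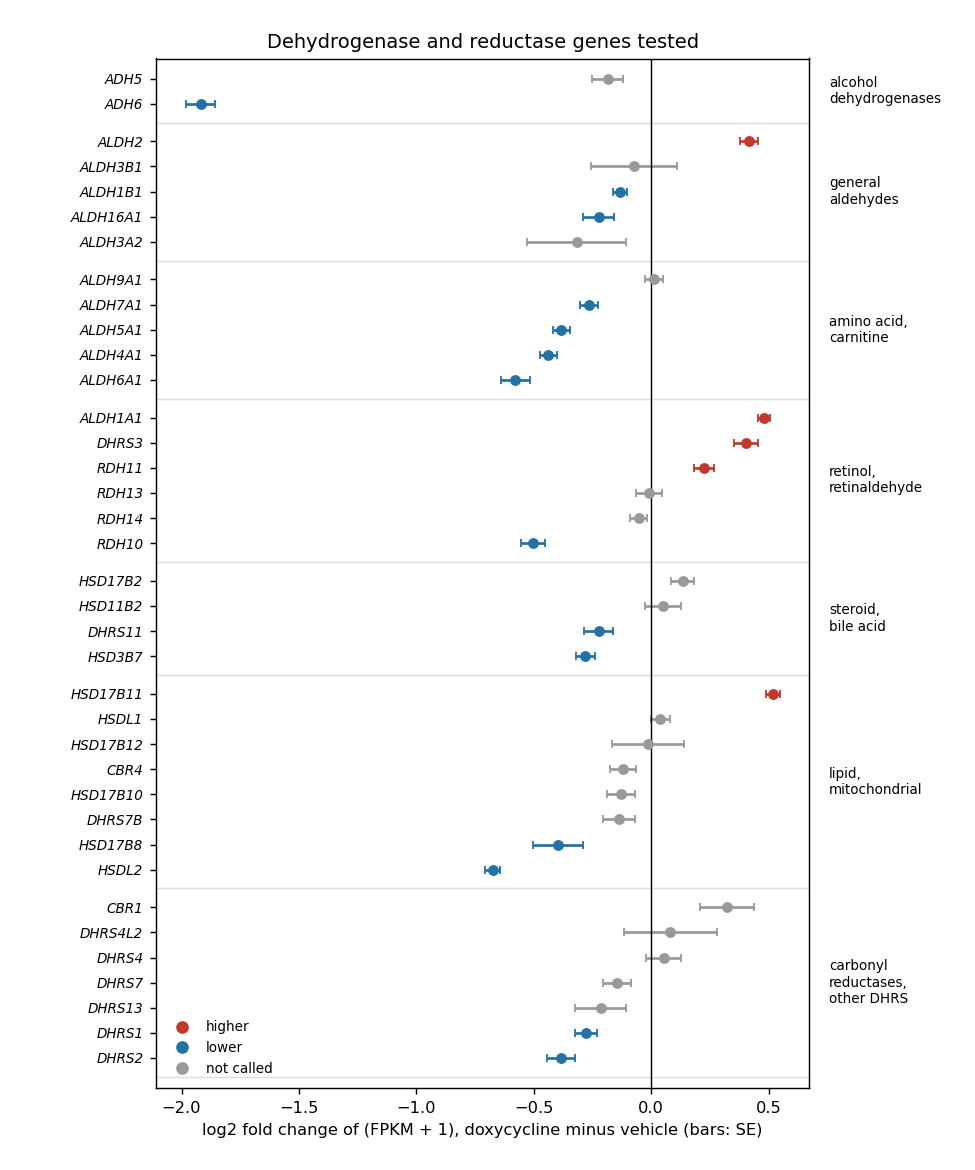
Log2 fold change on the log2(FPKM + 1) scale (x axis, doxycycline minus vehicle, bars are SE) of the 37 tested genes, grouped by role; red marks genes called higher, blue genes called lower and grey genes not called. ADH6 lies far left at -1.92, and the other genes lie between -0.67 (HSDL2) and 0.52 (HSD17B11).

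**Figure D2:**
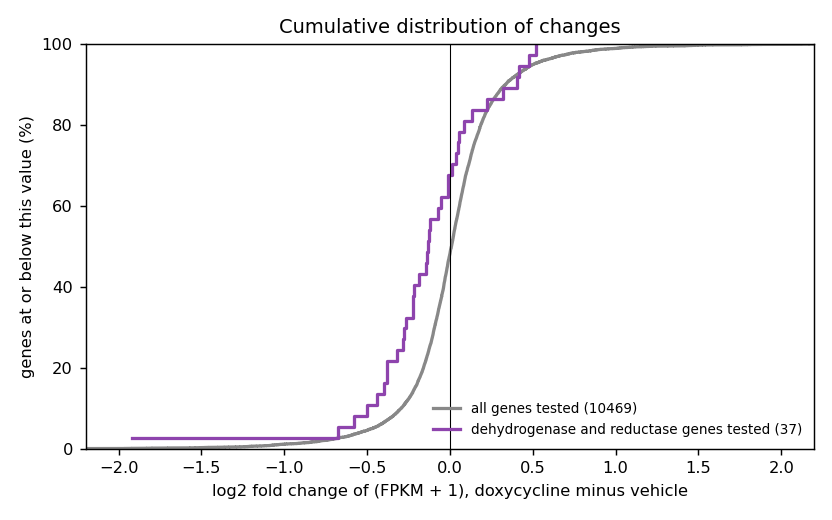
Share of genes (y axis, percent) at or below each log2 fold change (x axis) for the 10469 genes tested (grey) and the 37 dehydrogenase and reductase genes among them (purple). The purple line runs left of the grey one through the middle of the range, with medians of -0.13 and 0.01, and both meet near the largest increases.

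Of the alcohol dehydrogenases, ADH4, ADH5 and ADH6 were in the table, and ADH1A, ADH1B, ADH1C and ADH7 were not analysed here. The listed genes lie side by side on the minus strand of chromosome 4 (GRCh37), ADH5 at 99992129 to 100009952, ADH4 at 100044808 to 100078949 and ADH6 at 100123795 to 100140694. ADH6, an alcohol dehydrogenase class known from liver, stood at 8.68, 8.60 and 9.01 FPKM with vehicle and at 1.39, 1.66 and 1.71 FPKM with doxycycline. Every vehicle library was several times above every doxycycline library. The fall was 5.53-fold (log2 fold change -1.92, SE 0.06, adjusted p = 1.75e-05), and ADH6 went from rank 16 to rank 34 among the 43 genes by level. ADH4, which oxidizes ethanol, longer alcohols and retinol, was at 0.826, 1.23 and 1.15 FPKM with vehicle and at 0.247, 0.494 and 0.305 FPKM with doxycycline, also without overlap. Its mean was under the limit for testing. Without that limit its log2 fold change was -0.62 (adjusted p = 0.00729). ADH4 was listed through its vehicle level only, which favours a fall, so this p-value cannot decide whether it fell. ADH5, which clears formaldehyde bound to glutathione and S-nitrosoglutathione, was at 23.3, 26.9 and 22.8 FPKM and at 20.7, 21.4 and 21.7 FPKM. The ADH5 groups did not overlap, but the difference was not called (log2 fold change -0.18, adjusted p = 0.0879). ADH6 was at 0.362 ± 0.0391 of the ADH5 level with vehicle and at 0.0745 ± 0.00649 of it with doxycycline.

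The promoters of ADH4 and ADH6 are shown as those of neighbouring genes that were both lower in every doxycycline library, and those of ALDH1A1 and HSD17B11 as those of the genes with the largest increases. Each is the RefSeq window of 300 bases on GRCh38.p14, 250 before and 50 after the start, read on the minus strand as transcribed: chr4:99144248-99144547 for ADH4, chr4:99219197-99219496 for ADH6, chr9:72953004-72953303 for ALDH1A1 and chr4:87391139-87391438 for HSD17B11. Capitals mark matches on either strand. The motifs searched were AGGTCA and the related AGTTCA, single repeats of nuclear receptor sites, the TATA box TATAAA, the CCAAT box, the GC box GGGCGG and GTTAAT, part of the HNF1 site.
ADH4: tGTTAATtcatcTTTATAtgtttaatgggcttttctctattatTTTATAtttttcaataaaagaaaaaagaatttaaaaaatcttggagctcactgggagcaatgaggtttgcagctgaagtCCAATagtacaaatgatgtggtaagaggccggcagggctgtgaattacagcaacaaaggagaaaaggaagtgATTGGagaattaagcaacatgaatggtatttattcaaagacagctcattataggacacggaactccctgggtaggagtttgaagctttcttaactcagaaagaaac
ADH6: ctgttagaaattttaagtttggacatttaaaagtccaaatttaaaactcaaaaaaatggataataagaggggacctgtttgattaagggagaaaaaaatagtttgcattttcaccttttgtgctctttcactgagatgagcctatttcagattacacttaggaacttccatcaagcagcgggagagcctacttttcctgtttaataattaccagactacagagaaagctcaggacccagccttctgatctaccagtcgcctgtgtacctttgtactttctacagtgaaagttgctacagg
ALDH1A1: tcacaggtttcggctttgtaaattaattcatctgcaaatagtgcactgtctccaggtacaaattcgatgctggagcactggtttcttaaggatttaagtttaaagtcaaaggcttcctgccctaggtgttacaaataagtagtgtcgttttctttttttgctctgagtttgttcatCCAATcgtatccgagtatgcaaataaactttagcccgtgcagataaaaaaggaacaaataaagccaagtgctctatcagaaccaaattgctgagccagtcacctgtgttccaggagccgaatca
HSD17B11: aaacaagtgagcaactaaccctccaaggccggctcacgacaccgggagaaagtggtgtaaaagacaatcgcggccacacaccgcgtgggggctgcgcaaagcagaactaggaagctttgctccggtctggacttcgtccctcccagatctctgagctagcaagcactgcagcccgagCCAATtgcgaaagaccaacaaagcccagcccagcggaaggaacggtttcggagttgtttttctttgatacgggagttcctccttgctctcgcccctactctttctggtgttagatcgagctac

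The first 3 windows were the poorest in G and C of the 33 genes that had a window, at 35.7% for ADH4, 38.0% for ADH6 and 40.3% for ALDH1A1, and HSD17B11 had 55.3%. The median was 64.3% over the 33 genes and 58.3% over 27305 windows of all genes. In ADH4, CCAAT matched at -128 and, on the other strand, at -56, TATAAA on the other strand at -238 and -207, and GTTAAT at -249, counted from the start to the leftmost base. CCAAT matched at -74 in ALDH1A1 and at -73 in HSD17B11, and none of the 6 motifs matched in ADH6. Of the 33 windows 12 held CCAAT (35.7% of all windows), 20 held GGGCGG (44.6%), 2 held TATAAA (ADH4 and DHRS2, 12% of all) and 1 held GTTAAT (6.89% of all). Among the 33, AGGTCA matched only in HSD3B7, and AGTTCA only in RDH14 and DHRS13 (13.9% and 10.5% of all windows). Such repeats placed side by side at a spacing that CAR binds, such as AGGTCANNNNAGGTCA (0.0183% of all windows), were in none of the 33. Nor were those at a spacing of retinoic acid receptors, such as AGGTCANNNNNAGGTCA (0.00366%). This held for all combinations of AGGTCA and AGTTCA, and other spacings and orientations were not searched. A match is a run of letters, and its absence says nothing of sites outside these windows.

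Among aldehyde dehydrogenases of general aldehydes, ALDH2 rose and the other called genes were slightly lower. ALDH2, the mitochondrial enzyme that oxidizes most acetaldehyde from ethanol (chromosome 12, 112204691 to 112255333), was at 13.3, 12.8 and 12.3 FPKM with vehicle and at 17.2, 17.7 and 17.4 FPKM with doxycycline. All 3 doxycycline libraries were above the vehicle libraries, a 1.36-fold rise (log2 fold change 0.42, SE 0.04, adjusted p = 7.78e-04). ALDH1B1, its closest mitochondrial relative (chromosome 9, 38392661 to 38398658), stood at a higher level than ALDH2 in every library and went the other way. Its values were 70.7, 68.1 and 68.5 FPKM and then 61.9, 64.9 and 62.1 FPKM, again without overlap (log2 fold change -0.13, adjusted p = 0.0231). ALDH16A1, a family member without a known catalytic activity, went from 6.85, 6.20 and 6.05 to 5.37, 5.60 and 4.95 FPKM (a log2 fold change of -0.22, adjusted p = 0.0460). It overlaps PIH1D1 on the opposite strand, which was lower in every doxycycline library but not called (9.40 ± 0.481 and 8.44 ± 0.586 FPKM). The ALDH1B1 call ended without vehicle replicate 1 (adjusted p = 0.0634) or 3 (0.0582) and without doxycycline replicate 1 (0.0722) or 3 (0.0718). Over all alternatives its adjusted p was 0.0138 to 0.0722. The ALDH16A1 call ended without vehicle replicate 1 (adjusted p = 0.112), 2 (0.0880) or 3 (0.0662) and without doxycycline replicate 1 (0.0990), 2 (0.0590) or 3 (0.118). Over all alternatives its adjusted p was 0.0348 to 0.118.

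ALDH3A2, the fatty aldehyde dehydrogenase of the endoplasmic reticulum, depended on 1 library. It was at 21.7, 20.2 and 11.9 FPKM with vehicle and at 14.1, 13.4 and 13.7 FPKM with doxycycline, so that vehicle replicate 3 lay below all doxycycline libraries while the other vehicle libraries lay above them. It was not called (log2 fold change -0.32, adjusted p = 0.309) and was called lower without vehicle replicate 3 (log2 fold change -0.57, adjusted p = 0.00197, range over the alternatives 0.00197 to 0.615). ALDH3B1, at 2.35, 1.57 and 3.28 against 2.19, 2.32 and 1.99 FPKM, overlapped and was not called. ALDH3A1, the neighbour of ALDH3A2 on chromosome 17, was under the limit for testing, at 0.970 ± 0.120 and 0.795 ± 0.0693 FPKM.

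The aldehyde dehydrogenases of amino acid breakdown fell together. Of 5 tested genes 4 fell and none rose, where 13.6% of all genes tested fell and 15.2% rose. The median log2 fold change of the 5 was -0.38, and each of the 4 had all doxycycline libraries below all vehicle libraries. The summed level of the 4 and ALDH9A1 went from 76.6 ± 0.912 to 60.5 ± 0.320 FPKM. ALDH6A1, which acts on methylmalonate semialdehyde in valine and thymine breakdown (chromosome 14, 74523553 to 74551196), had the largest fall of them. It was at 6.12, 6.50 and 6.65 FPKM with vehicle and at 3.91, 3.71 and 4.29 FPKM with doxycycline (log2 fold change -0.58, SE 0.06, adjusted p = 0.00115). ALDH6A1 overlaps BBOF1 on the opposite strand, which was also called lower at 1.16 ± 0.0225 and 0.868 ± 0.0601 FPKM. Whether counting used the strand is not given in the sources used here, so reads of such partners may be mixed. ALDH5A1, CBR1, CBR4, DHRS7 and HSD11B1L also overlap a gene on the opposite strand, and none of these partners was called.

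ALDH4A1, the mitochondrial enzyme that completes proline breakdown (chromosome 1, 19197924 to 19229275), went from 35.8, 33.3 and 34.1 to 24.6, 25.4 and 25.4 FPKM. This is a 1.37-fold fall (log2 fold change -0.44, adjusted p = 4.65e-04). ALDH5A1, succinic semialdehyde dehydrogenase of GABA breakdown (chromosome 6, 24495080 to 24537435), went from 13.3, 13.0 and 13.7 to 9.74, 10.2 and 10.1 FPKM (a log2 fold change of -0.38, adjusted p = 8.54e-04). ALDH7A1, antiquitin of lysine breakdown (chromosome 5, 125866892 to 125931110), went from 5.99, 6.10 and 6.08 to 4.96, 4.84 and 4.80 FPKM (a log2 fold change of -0.27, adjusted p = 0.00434). The spread within each group was small beside these differences. ALDH9A1, which makes the carnitine precursor and acts on aminoaldehydes, was at 16.4 ± 0.462 and 16.5 ± 0.450 FPKM with overlapping groups (log2 fold change 0.01, adjusted p = 0.833). ALDH1L1 and ALDH8A1 were not analysed here.

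**Figure D3:**
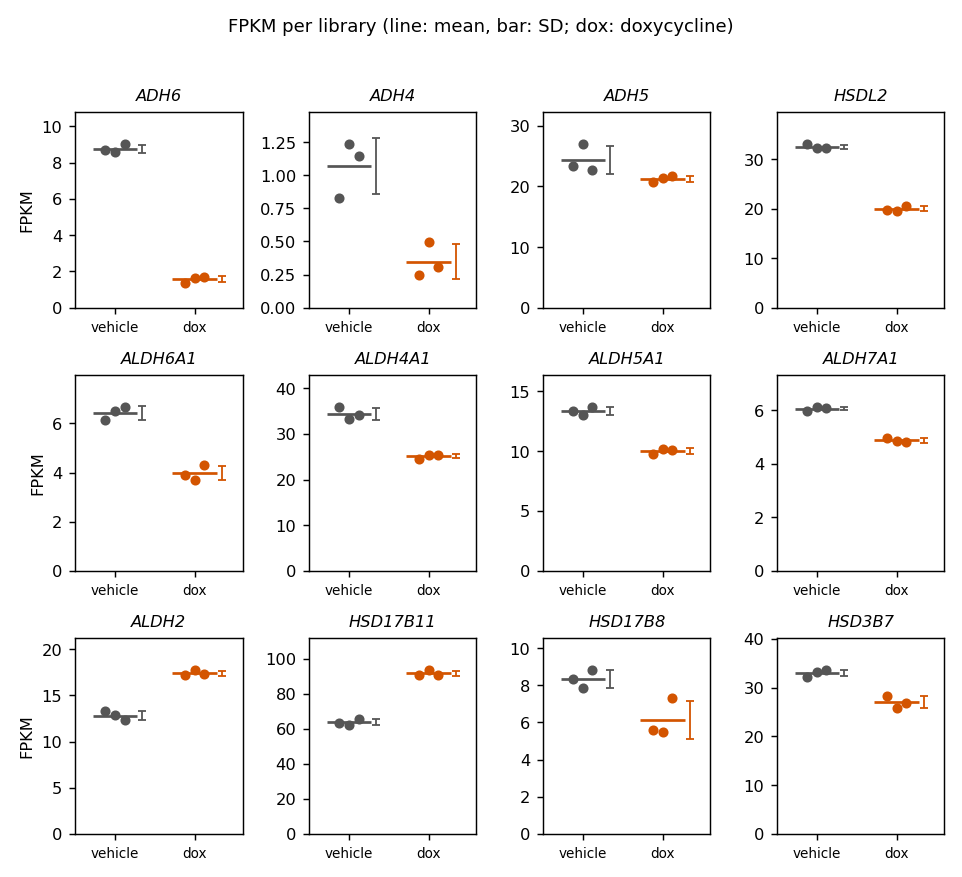
FPKM of 12 genes (y axes, linear and starting at 0) in each library, 3 vehicle (grey) and 3 doxycycline (orange) points per panel, with the group mean as a line and the SD as a bar. ADH6, ADH4, HSDL2 and the amino acid aldehyde dehydrogenases sit lower with doxycycline, ALDH2 and HSD17B11 sit higher, and doxycycline replicate 3 of HSD17B8 (7.31 FPKM) sits above the other doxycycline libraries.

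Of 6 tested genes of retinoic acid metabolism 3 rose and 1 fell, where 15.2% of all genes tested rose and 13.6% fell. Retinol is oxidized to retinaldehyde by RDH enzymes, reduced back by DHRS3 and RDH11, and retinaldehyde is oxidized to retinoic acid by ALDH1A enzymes. ALDH1A1, which makes retinoic acid and also clears other aldehydes (chromosome 9, 75515578 to 75695358), had the highest level of all 43 genes in every library. It was at 209, 201 and 199 FPKM with vehicle and at 281, 286 and 283 FPKM with doxycycline, 1.40-fold higher (log2 fold change 0.48, SE 0.02, adjusted p = 7.33e-05). Its part in the summed FPKM of the 43 genes went from 28.5% ± 0.299 to 37.1% ± 0.133. ALDH1A2 and ALDH1A3 were not analysed here.

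Of the enzymes between retinol and retinaldehyde, DHRS3 and RDH11 rose, RDH10 fell, and RDH13 and RDH14 were not called. DHRS3, which reduces retinaldehyde to retinol (chromosome 1, 12627939 to 12677737), went from 18.7, 19.6 and 17.6 to 24.5, 24.3 and 26.0 FPKM (a log2 fold change of 0.40, SE 0.05, adjusted p = 0.00228). RDH11, another reductase of retinaldehyde (chromosome 14, 68143518 to 68162531), went from 8.79, 8.22 and 8.64 to 10.3, 10.4 and 9.86 FPKM (a log2 fold change of 0.23, adjusted p = 0.0106). RDH10, the main enzyme that oxidizes retinol to retinaldehyde (chromosome 8, 74206847 to 74237516), went from 8.85, 9.29 and 8.54 to 6.27, 5.84 and 5.82 FPKM (a log2 fold change of -0.50, SE 0.05, adjusted p = 9.15e-04). None of the 3 genes overlapped between groups. RDH10 meets RPL7, a ribosomal protein gene on the opposite strand, which was at 180 ± 5.40 and 164 ± 2.97 FPKM (log2 fold change -0.13, called lower). The level of DHRS3 over that of RDH10, a ratio chosen after the values were seen and not tested, was 2.12, 2.11 and 2.06 with vehicle and 3.90, 4.17 and 4.46 with doxycycline. RDH14 (20.0 ± 0.715 and 19.2 ± 0.376 FPKM) and the mitochondrial RDH13 (1.49 ± 0.107 and 1.47 ± 0.0717 FPKM) were not called. RDH5, a retinol dehydrogenase known from the eye, was under the limit for testing at 0.719, 0.933 and 0.999 against 0.474, 0.562 and 0.484 FPKM. RDH5 lay lower in every doxycycline library (adjusted p = 0.0207 without the limit), and it overlaps AC009779.3 on the same strand.

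Other retinoid genes were taken from a list of 26 carriers, receptors, coregulators and enzymes, of which 14 were in the table and 11 tested. Of these 3 rose and 4 fell (15.2% and 13.6% of all genes tested did), with a median log2 fold change of -0.02. CYP26A1, which breaks down retinoic acid, was at 0.608, 0.707 and 0.667 FPKM with vehicle and at 6.05, 3.65 and 5.07 FPKM with doxycycline, 7.45-fold higher (log2 fold change 1.81, adjusted p = 4.16e-04). RBP4, the plasma carrier of retinol, went from 69.1, 64.0 and 59.7 to 18.4, 23.7 and 16.9 FPKM (a log2 fold change of -1.67, adjusted p = 2.84e-04). The groups overlapped for neither gene. NRIP1 also rose, and RBP5, TTR and the retinoid receptor RXRA also fell.

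**Figure D4:**
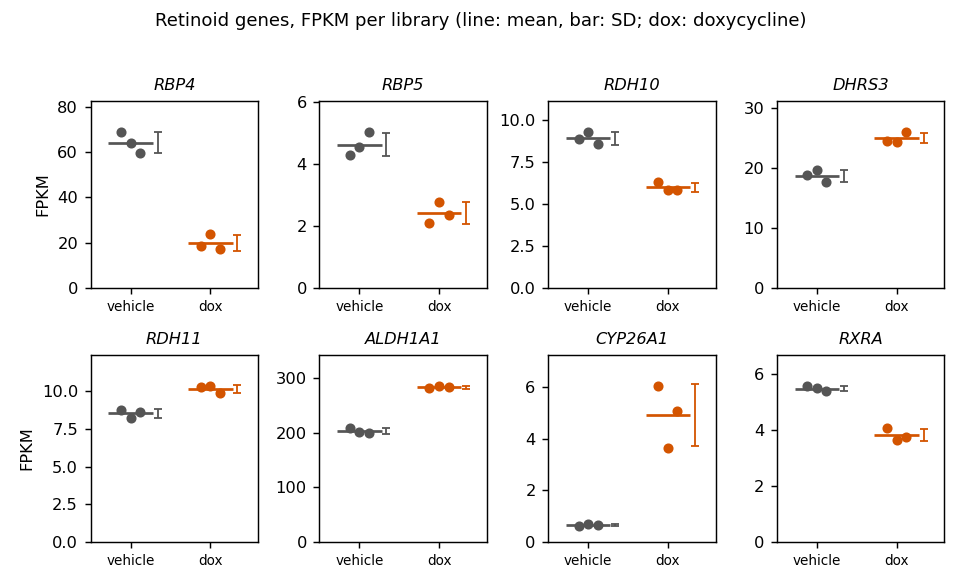
FPKM of 8 retinoid genes (y axes, linear and starting at 0) in each library, 3 vehicle (grey) and 3 doxycycline (orange) points per panel, with the group mean as a line and the SD as a bar. DHRS3, RDH11, ALDH1A1 and CYP26A1 sit higher with doxycycline, RBP4, RBP5, RDH10 and RXRA sit lower, and no panel has overlapping groups. The panels were chosen among called genes, and retinoid genes that were not called are not shown.

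Of the steroid and bile acid dehydrogenases, 2 of 4 tested genes fell and none rose (13.6% and 15.2% of all genes tested did). HSD3B7, which acts early in bile acid synthesis from hydroxylated cholesterol (chromosome 16, 30996528 to 31000473), held 79.9% of the summed FPKM of this group with vehicle. It went from 32.2, 33.2 and 33.5 to 28.2, 25.8 and 26.9 FPKM (a log2 fold change of -0.28, SE 0.04, adjusted p = 0.00400). DHRS11, which reduces ketosteroids (chromosome 17, 34948228 to 34957235), went from 4.49, 4.22 and 4.38 to 3.93, 3.55 and 3.32 FPKM (a log2 fold change of -0.22, adjusted p = 0.0422). Neither gene overlapped between groups, but the DHRS11 call ended without vehicle replicate 1 (adjusted p = 0.114), 2 (0.0772) or 3 (0.105) and without doxycycline replicate 2 (0.106) or 3 (0.105). Over all alternatives its adjusted p was 0.0283 to 0.114.

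The classical hormone-inactivating enzymes were near the lower limit of the table. HSD17B2, which oxidizes oestradiol and testosterone, was at 1.06, 1.02 and 1.05 against 1.18, 1.32 and 1.24 FPKM, without overlap but not called (log2 fold change 0.13, adjusted p = 0.0941). HSD11B2, which inactivates cortisol, was at 1.56 ± 0.0799 and 1.66 ± 0.236 FPKM and not called. HSD17B1, which makes oestradiol (0.805 ± 0.0699 and 0.663 ± 0.155 FPKM), was under the limit for testing. HSD11B1L was too, at 0.484, 0.577 and 0.526 against 0.277, 0.238 and 0.207 FPKM, lower in every doxycycline library. Without the limit its adjusted p in limma was 0.00726. HSD11B1L was listed through its vehicle level only, which favours a fall, so this p-value cannot decide whether it fell. HSD11B1L lies on the same strand as RPL36, a ribosomal protein gene that overlaps it and was called lower (88.1 ± 3.19 and 76.4 ± 3.27 FPKM). HSD11B1, HSD3B1, HSD3B2, HSD17B3, HSD17B6 and HSD17B14 were not analysed here.

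Steroid partner genes outside these families came from a list of 39 genes of synthesis, conjugation, transport and signalling, of which 17 were tested. Of these 7 rose and 2 fell (15.2% and 13.6% of all genes tested did), with a median log2 fold change of 0.30. SERPINA6, the plasma carrier of cortisol, went from 43.1 ± 0.868 to 10.7 ± 0.689 FPKM (a log2 fold change of -1.91, adjusted p = 1.09e-05). CYB5A, cytochrome b5, an electron donor to P450 enzymes, went from 9.25 ± 0.341 to 24.8 ± 0.504 FPKM (a log2 fold change of 1.34, adjusted p = 1.19e-05). AKR1C3, a ketosteroid reductase of the aldo-keto family, went from 34.6 ± 1.17 to 67.0 ± 1.63 FPKM (a log2 fold change of 0.93, adjusted p = 2.48e-05).

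Enzymes with a hydroxysteroid name or fold that act on lipids or in mitochondria included the largest rise by log2 fold change and the largest fall after ADH6. HSD17B11, a protein of the endoplasmic reticulum and lipid droplets (chromosome 4, 88257762 to 88312538), was at 63.5, 62.2 and 65.5 FPKM with vehicle and at 91.0, 93.4 and 90.5 FPKM with doxycycline. It was 1.44-fold higher (log2 fold change 0.52, SE 0.03, adjusted p = 9.90e-05) and passed ALDH1B1 to become the second of the 43 genes by level. HSDL2, a peroxisomal protein with a sterol carrier domain (chromosome 9, 115142217 to 115234690), went from 33.0, 32.2 and 32.3 to 19.8, 19.6 and 20.6 FPKM. The HSDL2 groups lay far apart beside their spread (1.63-fold lower, log2 fold change -0.67, SE 0.03, adjusted p = 5.42e-05).

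HSD17B8 and CBR4 form 1 enzyme, the ketoacyl reductase of mitochondrial fatty acid synthesis. HSD17B8 (chromosome 6, 33172419 to 33174608) went from 8.34, 7.84 and 8.79 to 5.60, 5.46 and 7.31 FPKM, and doxycycline replicate 3 came close to the vehicle libraries (log2 fold change -0.40, adjusted p = 0.0376). The HSD17B8 call ended without vehicle replicate 1 (adjusted p = 0.0953), 2 (0.0686) or 3 (0.106) and without doxycycline replicate 1 (0.106) or 2 (0.101). Over all alternatives its adjusted p was 0.00530 to 0.106. Its partner CBR4, at 7.73, 7.27 and 6.76 against 6.51, 6.49 and 6.77 FPKM, overlapped between groups by a narrow margin and was not called (log2 fold change -0.12, adjusted p = 0.161). HSD17B10, which acts in isoleucine breakdown and mitochondrial tRNA processing, was at 32.8 ± 1.46 and 29.9 ± 2.08 FPKM and not called. HSD17B12, of fatty acid elongation (7.19 ± 1.39 and 7.07 ± 1.02 FPKM), HSDL1 (7.68 ± 0.188 and 7.92 ± 0.140 FPKM) and DHRS7B, of ether lipid synthesis (2.83 ± 0.167 and 2.49 ± 0.220 FPKM), were not called either. HSD17B13 was not analysed here.

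Among carbonyl reductases and the remaining DHRS genes 2 of 7 tested fell and none rose, where 13.6% of all genes tested fell and 15.2% rose. The share called in either direction was 28.6%, against 28.8% of all genes tested. DHRS2, a reductase of dicarbonyls (chromosome 14, 24099324 to 24114848), was at 1.98, 1.74 and 1.93 FPKM with vehicle and at 1.11, 1.22 and 1.30 FPKM with doxycycline (log2 fold change -0.38, adjusted p = 0.00545). DHRS1, a reductase of the endoplasmic reticulum (chromosome 14, 24759804 to 24769039), went from 2.95, 2.88 and 2.85 to 2.13, 2.28 and 2.23 FPKM (a log2 fold change of -0.28, adjusted p = 0.00661). Both were lower in every doxycycline library. CBR1, the cytosolic reductase of quinones, prostaglandins and anthracyclines, had the highest level of this group. CBR1 was at 7.42, 6.90 and 5.66 against 7.43, 9.18 and 9.09 FPKM. Vehicle replicate 1 lay just below doxycycline replicate 1, and CBR1 was not called (log2 fold change 0.32, adjusted p = 0.0855). DHRS4, a peroxisomal carbonyl reductase, and DHRS4L2 are near-identical neighbours on chromosome 14 whose reads may be shared. DHRS4 was at 3.85 ± 0.247 and 4.03 ± 0.407 FPKM and DHRS4L2 at 2.39 ± 0.850 and 2.52 ± 0.296 FPKM, with vehicle replicate 3 at 1.42 FPKM, and neither was called. DHRS7 (5.66 ± 0.321 and 5.01 ± 0.277 FPKM) and DHRS13 (2.83 ± 0.425 and 2.30 ± 0.307 FPKM) were not called, and DHRS12 (0.896 ± 0.0667 and 0.735 ± 0.0730 FPKM) was under the limit for testing. CBR3 was not analysed here.

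Genes that work beside these enzymes were described from 4 further lists, whose median log2 fold changes were -0.28 for ethanol and acetate handling, -0.05 for other aldehyde and glyoxal removal, -0.06 for other short-chain enzymes and -0.03 for NAD(P)H supply. Over all genes tested 15.2% rose and 13.6% fell. Of 5 tested genes of ethanol and acetate handling 2 rose and 3 fell. Catalase (CAT), which oxidizes some ethanol with peroxide, went from 40.8 ± 0.691 to 18.0 ± 1.15 FPKM (a log2 fold change of -1.14, adjusted p = 3.86e-05). ACSS3, an acyl-CoA synthetase of short chains, rose from 6.15 ± 0.136 to 10.6 ± 0.146 FPKM, and SLC16A1, a monocarboxylate transporter, fell from 52.7 ± 5.47 to 34.2 ± 2.44 FPKM. CYP2E1 was not analysed here. Of 13 tested genes of other aldehyde and glyoxal removal 4 rose and 2 fell. AOX1, aldehyde oxidase, went from 6.13 ± 0.604 to 19.7 ± 0.189 FPKM (a log2 fold change of 1.54, adjusted p = 3.97e-05), the retinaldehyde reductase AKR1B10 from 19.8 ± 1.59 to 46.5 ± 0.927 FPKM and PTGR1, a reductase of unsaturated aldehydes, from 1.84 ± 0.289 to 4.66 ± 0.149 FPKM.

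Of 24 tested short-chain dehydrogenases/reductases outside the families 1 rose and 5 fell, 25.0% of them, close to the share of all genes tested. GMDS, of GDP-fucose synthesis, went from 16.7 ± 0.633 to 10.2 ± 2.33 FPKM, PECR, a peroxisomal enoyl-CoA reductase, from 14.0 ± 0.549 to 9.82 ± 0.495 FPKM, and FASN, fatty acid synthase, from 42.3 ± 0.438 to 30.6 ± 0.101 FPKM. Without doxycycline replicate 1 only 3 of this list fell. Of 19 tested genes of NAD(P)H supply 3 rose and 5 fell, 42.1% of them against 28.8% of all genes tested. Without vehicle replicate 2 or 3 only 3 of the NAD(P)H genes fell. PGD, an NADPH-forming enzyme of the pentose phosphate pathway, went from 93.9 ± 8.58 to 135 ± 1.47 FPKM (a log2 fold change of 0.53, adjusted p = 0.00198). NADK2, the mitochondrial NAD kinase, went from 6.93 ± 0.463 to 4.29 ± 0.868 FPKM (a log2 fold change of -0.60, adjusted p = 0.0171).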

How the data were processed

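Values are FPKM as deposited by the authors, 1 column per library and none pooled per the labels; the submitters' processing notes name FastQC, cutadapt, HISAT2, StringTie and GRCh37, without versions or an annotation release. The libraries used oligo(dT) selection and dUTP strand marking, per the labels' protocols. No counts were used, so depth is unknown and no counting interval is given, and FPKM shows shares of a library, not amounts. The entry with the highest mean represented each of 5 symbols that 10 entries shared. The smallest value of the larger group mean in the table was 0.500, so weak genes were not analysed here.

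limma 3.58.1 (R 4.3.3; lmFit, eBayes with trend) was fitted to log2(FPKM + 1) of all genes with a mean of at least 1 FPKM, with group as the only term, two-sided and with Benjamini-Hochberg adjustment over 10469 genes. Folds are ratios of mean FPKM. Data were simulated for this comparison with 10469 genes, 100 changed by 0.5 and 100 by 1 on the log2 scale. Of these 72% and 89% were recovered, and 5.85% of calls were false. Far fewer genes were changed there than the 28.8% called here, so these rates need not hold for the data. The members and lists were chosen with earlier results of these data known, so lists are given as counts and medians without a set test. Named are all called members, the highest member of each role group, all ADH genes, up to 3 called genes of each list with the largest log2 fold change, and NR1I3; other genes were named after their values were seen. Some genes that this rule or the marker lists name are not reported here. Promoters are from RefSeq (GRCh38.p14) and were matched by symbol for 33 of 43 genes, with no coordinates carried over to GRCh37. The fit was repeated with pseudocounts of 0.1 and 0.5, without a filter, with at least 5 FPKM, median-ratio scaling, quantile normalization, no trend, robust moderation, summed entries, the replicate number as a block, and each library left out.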

Additional observations from a re-analysis of the deposited data

How the results depend on the processing

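Of the 19 called genes 15 kept their call in every alternative that tested them, and ALDH1B1, ALDH16A1, DHRS11 and HSD17B8 lost it in 5 to 7 of their alternatives. ALDH1B1 also lost it in limma without the trend (adjusted p = 0.0530). ALDH3A2 gained a call without vehicle replicate 3. No tested gene of the families reversed a call. The number of genes that rose was 5 in all 16 alternatives, and the number that fell was 10 to 17, highest without the filter, where ADH4, RDH5 and HSD11B1L were called. ADH4 and HSD11B1L were listed through their vehicle level only, so their calls are not independent of how genes were listed. Replicate numbers did not pair the libraries (correlations of deviations 0.02, -0.03 and 0.09 for numbers 1, 2 and 3). With the replicate number as a block 5 rose and 11 fell, and ALDH1B1 (adjusted p = 0.0687), ALDH16A1 (0.0668) and DHRS11 (0.0696) were not called. Over all genes tested 1163 to 1724 were called higher and 1040 to 1543 lower. In the retinoid list 5 rose without the filter and 1 fell with a minimum of 5 FPKM; in the steroid list 4 fell without the filter. With each library left out in turn, 3 to 6 of the other short-chain dehydrogenases and 3 to 5 of the NAD(P)H genes fell. No scaling moved the median of all genes by over 0.1. Depth is unknown, so precision at low FPKM cannot be given.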

Other observations

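The proteins were sorted by where they are known to reside, an assignment made from textbook knowledge after the values were seen and not tested. It left out part of the 37 tested genes, among them ALDH16A1, DHRS1, DHRS2, DHRS11 and HSDL2, which fell. The mitochondrial enzymes had more falls than rises, as did the 37 genes as a whole (14 fell and 5 rose). Over all genes tested 13.6% were called lower and 15.2% higher. Of 10 tested mitochondrial genes 6 fell (ALDH1B1, ALDH4A1, ALDH5A1, ALDH6A1, ALDH7A1 and HSD17B8) and 1 rose (ALDH2), with a median log2 fold change of -0.20. Of 10 tested genes sorted to the endoplasmic reticulum or lipid droplets 3 rose (HSD17B11, DHRS3 and RDH11) and 2 fell (RDH10 and HSD3B7), with a median of 0.02. DHRS1, also of the endoplasmic reticulum, fell (log2 fold change -0.28) but was not sorted, so this count and this median leave it out. Of 5 tested cytosolic genes ALDH1A1 rose and ADH6 fell. The difference between compartments was not tested.

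The summed FPKM of the 43 genes went from 712 ± 12.8 to 764 ± 6.15 although more of them fell than rose. The retinol and retinaldehyde group went from 261 ± 5.74 to 346 ± 2.59 FPKM, of which ALDH1A1 held 77.7% with vehicle and 82.0% with doxycycline. The alcohol dehydrogenases went from 34.2 ± 2.24 to 23.2 ± 0.773 FPKM, and ADH5 held 71.2% of this with vehicle and 91.7% with doxycycline. The steroid and bile acid group went from 41.3 ± 0.535 to 34.4 ± 1.27 FPKM.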
